A study of Mus musculus with 24 samples.

Results

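Snx10, Tax1bp1, Plekha8, Nod1, Ggct, Avl9 and Kbtbd2 are 7 protein-coding genes that lie within 5.27 Mb of mouse chromosome 6. They are 7 of the 55487 genes counted, and 535 other annotated genes start in the same stretch of 40 to 60 Mb. They were selected on their read counts, which were lower in libraries labelled DUXBL-KO than in libraries of the plain WT line. That contrast therefore describes how the genes were chosen and supports nothing here. What the choice did not use is the response to doxycycline (DOX) within each line and the levels in the other 4 lines. All 7 genes passed the filter on low counts in both sets of lines, plain and pLV2; Nod1 would not have passed on the libraries of WT pLV2 line 2 alone.

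KH2, the mouse embryonic stem cell line used throughout, carries the DOX-controlled transactivator that switches on genes placed behind a tetracycline response element. In every line used here, controls included, that element drives a Dux transgene, per the titles (TRE_DUX). DUX is a homeobox factor that turns on genes of the totipotent-like state of the early embryo, and DUXBL is a related homeobox protein. TRIM24 and TRIM33 are chromatin-binding tripartite motif proteins. The design compared 6 lines, with 2 untreated libraries and 2 taken after DOX for 16 h per line: plain WT, DUXBL-KO, a first and a further WT line marked pLV2 (line 1 and line 2 here), TRIM24-KO pLV2 and TRIM33-KO pLV2. The labels do not explain pLV2 and do not tie a WT line to a knockout. As far as the labels say, each line is a single line and its 2 libraries per state may be technical repeats, so p-values measure the spread between these libraries, and line and genotype cannot be told apart. The cells were grown on gelatin or on growth-arrested fibroblasts, and in such bulk samples fewer cells of a type and less RNA per cell cannot be told apart.

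The 7 proteins are not known for a common pathway. SNX10 is a sorting nexin that binds endosomal membranes and works with the proton pump of acidic vesicles. TAX1BP1 is an autophagy receptor that binds ubiquitin and restrains inflammatory NF-kB signalling, and PLEKHA8 (FAPP2) carries glucosylceramide within the Golgi. AVL9 is a DENN-type protein of the late secretory pathway. NOD1 is a cytosolic sensor of bacterial peptidoglycan fragments that signals through RIPK2, GGCT is the gamma-glutamylcyclotransferase of the gamma-glutamyl cycle of glutathione, and KBTBD2 is an adaptor of the CUL3 ubiquitin ligase that targets the p85 subunit of PI3 kinase.

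The genes sit in this order on GRCm38 in the GENCODE M21 annotation. Snx10 (ENSMUSG00000038301.15) spans chr6:51523901-51590679 on the plus strand, and Tax1bp1 (ENSMUSG00000004535.12) spans chr6:52713729-52766780 on the plus strand. Plekha8 (ENSMUSG00000005225.15) spans chr6:54595111-54645839 on the plus strand. Nod1 (ENSMUSG00000038058.14, chr6:54923949-54972612) and Ggct (ENSMUSG00000002797.9, chr6:54982580-54992950) are neighbours on the minus strand, with start sites 20.3 kb apart. Avl9 (ENSMUSG00000029787.10, chr6:56714899-56761912, plus strand) and Kbtbd2 (ENSMUSG00000059486.11, chr6:56777524-56797813, minus strand) are also neighbours. Plekha8 overlaps Fkbp14 on the opposite strand, Tax1bp1 overlaps 2 and Kbtbd2 overlaps 1 minor annotated transcript unit on the opposite strand. The library kit keeps strand, but whether the counting used it is not given in the sources used here, so reads of these overlaps cannot be assigned with certainty.

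The promoter windows of 4 of the genes are shown because these genes mark the range of what follows: Nod1 and Ggct had the largest differences between lines, Tax1bp1 the smallest difference in the contrast behind the choice, and Plekha8 was the exception in direction between the WT pLV2 lines. Each window is 300 bases from the RefSeq promoter table (GRCm38.p6), from 250 bases before the start to 50 after it, written 5′ to 3′ on the gene's strand. Capitals mark matches to GGGCGG (or its complement CCGCCC) and to CCAAT (or its complement ATTGG).
Nod1 (chr6:54972563-54972862, minus strand): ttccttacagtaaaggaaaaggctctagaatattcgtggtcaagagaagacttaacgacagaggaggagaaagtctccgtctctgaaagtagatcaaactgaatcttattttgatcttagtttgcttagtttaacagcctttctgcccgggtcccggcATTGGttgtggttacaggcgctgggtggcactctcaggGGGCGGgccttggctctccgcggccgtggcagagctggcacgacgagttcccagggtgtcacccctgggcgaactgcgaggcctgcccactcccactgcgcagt
Ggct (chr6:54992818-54993117, minus strand): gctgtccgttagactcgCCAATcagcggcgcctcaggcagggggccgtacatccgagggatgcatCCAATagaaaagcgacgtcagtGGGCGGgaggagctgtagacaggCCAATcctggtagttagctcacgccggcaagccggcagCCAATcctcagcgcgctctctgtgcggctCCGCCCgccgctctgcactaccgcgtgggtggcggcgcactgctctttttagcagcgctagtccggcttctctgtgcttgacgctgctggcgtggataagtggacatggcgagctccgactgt
Tax1bp1 (chr6:52713479-52713778, plus strand): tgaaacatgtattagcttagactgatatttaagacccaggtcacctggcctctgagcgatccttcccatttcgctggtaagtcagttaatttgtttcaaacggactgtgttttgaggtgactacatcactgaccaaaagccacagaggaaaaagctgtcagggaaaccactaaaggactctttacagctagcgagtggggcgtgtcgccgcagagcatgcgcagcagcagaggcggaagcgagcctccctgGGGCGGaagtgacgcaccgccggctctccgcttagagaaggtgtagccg
Plekha8 (chr6:54594861-54595160, plus strand): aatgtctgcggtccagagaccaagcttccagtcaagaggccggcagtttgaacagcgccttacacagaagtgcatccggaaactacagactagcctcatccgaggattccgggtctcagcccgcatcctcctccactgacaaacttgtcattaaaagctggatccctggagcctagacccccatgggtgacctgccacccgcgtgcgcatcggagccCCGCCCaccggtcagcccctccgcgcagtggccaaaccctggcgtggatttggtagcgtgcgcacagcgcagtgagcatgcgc

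All 7 genes matched the promoter table. GGGCGG, searched on both strands, was present in all 7 windows with 1 to 6 matches, the most in Avl9, against 35.9% of all 27025 windows of this length. CCAAT was present in 3 windows, with 4 matches in Ggct and 1 each in Nod1 and Snx10, against 37.9% of all windows. TATAAA was in none of the 7 and in 14.2% of all. The members held 15 to 37 CG dinucleotides, against a median of 7 over all windows. The RefSeq start of Kbtbd2 is 600 bases from its GENCODE start, so its window is not the one that the annotated position would give.

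The libraries held 11784696 to 19136869 gene counts. A gene is said to pass, or to be called, where its p-value from edgeR's quasi-likelihood test, adjusted over all genes tested by the Benjamini-Hochberg method, is under 0.05. Levels are given as CPM, gene counts scaled to a common library size, with composition factors computed over all 24 libraries. Dux itself (Duxf3) had 0 to 2 counts in the libraries without DOX in the title and 20 to 110 in those with it, although the treatment tag contradicts the title in 8 pLV2 libraries; the titles were followed. Trim33 averaged 20.5 CPM in the TRIM33-KO line and 111 to 164 CPM in the other lines. Trim24, which lies on the same chromosome -17.1 Mb from Nod1, averaged 133 CPM in the line labelled TRIM24-KO, between line 1 (103 CPM) and line 2 (196 CPM). On the log2 scale it was 0.37 higher than in line 1 (edgeR adjusted p = 0.00028), 0.54 lower than in line 2 (-0.54, edgeR adjusted p = 2.5e-06) and at -0.09 of the mean of both (edgeR adjusted p = 0.23). Duxbl1 did not separate the line labelled DUXBL-KO from plain WT. It averaged 0.530 against 0.980 CPM without DOX (SD 0.345 and 0.933, n = 2 each) and 7.14 against 5.11 CPM with DOX (SD 3.89 and 3.20). The labels do not say which part of either gene was targeted, so both lines are named by their label only. A single gene, CT010467.1, took 30.4% of the gene counts in TRIM24-KO with DOX replicate 2 and 12.9% in TRIM33-KO with DOX replicate 2. The libraries expressed the 19 pluripotency markers at a summed 5981 to 8141 CPM with none at 0, Pou5f1 among them at 541 to 842 CPM.

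Nod1, the peptidoglycan sensor, divided the 6 lines into those with 16.3 to 37.7 CPM and those with under 3 CPM. In plain WT it stood at 37.7 and 21.3 CPM without DOX and at 28.7 and 16.3 CPM with DOX, and in the line labelled DUXBL-KO at 0.532 and 1.10 CPM without and 0.585 and 1.01 CPM with DOX. In WT pLV2 line 1 it stood at 27.5 and 26.8 CPM without and 20.1 and 19.1 CPM with DOX, whereas in WT pLV2 line 2 it stood at 0.509 and 0.583 CPM without and 0.579 and 0.322 CPM with DOX. The libraries labelled TRIM24-KO gave 28.0 and 24.1 CPM without and 20.3 and 19.2 CPM with DOX, and TRIM33-KO gave 2.61 and 1.82 CPM without and 0.867 and 1.29 CPM with DOX. Both high and low lines therefore occur among WT and among knockout lines, and no library of the low lines reached any library of the high lines. The low values rest on few reads: the 4 libraries of line 2 held 30 Nod1 counts in all (95% Poisson interval 20.2 to 42.8), those labelled DUXBL-KO 65 (50.2 to 82.8) and those of TRIM33-KO 106 (86.8 to 128), against 1829 in plain WT. These intervals cover counting error only. In order of mean level, plain WT (26.0 CPM), line 1 (23.4) and TRIM24-KO (22.9) overlapped, as did TRIM33-KO (1.65), DUXBL-KO (0.806) and line 2 (0.498) each with the next.

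Ggct, the glutathione-cycle enzyme 20.3 kb from Nod1, followed a similar but much flatter pattern. It read 25.4 and 16.3 CPM without and 18.0 and 18.1 CPM with DOX in plain WT, against 5.27 and 5.91 CPM without and 3.63 and 4.39 CPM with DOX in the line labelled DUXBL-KO. It read 11.9 and 12.8 CPM without and 10.2 and 9.28 CPM with DOX in line 1, against 5.70 and 6.93 CPM without and 5.29 and 5.96 CPM with DOX in line 2. The libraries labelled TRIM24-KO gave 17.43 and 11.998 CPM without and 15.9 and 13.7 CPM with DOX, and TRIM33-KO gave 5.75 and 6.94 CPM without and 6.26 and 6.80 CPM with DOX. Plain WT, TRIM24-KO and line 1 were thus above the other 3 lines in every library, and the lowest line mean was 4.06-fold below the highest.

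Tax1bp1, the autophagy receptor, was the most abundant of the 7 per length, at 15.5 CPM per kb of exon in plain WT, where Ggct was the least abundant at 2.51 CPM per kb. Its libraries spanned 148 to 160 CPM in plain WT and 124.6 to 140.6 CPM in TRIM24-KO, 86.8 to 91.1 CPM in DUXBL-KO, 84.9 to 90.7 CPM in line 1, 66.5 to 72.8 CPM in TRIM33-KO and 64.8 to 71.8 CPM in line 2. These values form 4 levels that do not overlap, with DUXBL-KO and line 1 sharing the third and TRIM33-KO and line 2 the lowest.

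Plekha8, the Golgi lipid carrier, had a different lowest line. It read 48.8 and 50.4 CPM without and 46.2 and 47.2 CPM with DOX in plain WT, and 22.9 and 24.5 CPM without and 22.6 and 22.9 CPM with DOX in DUXBL-KO. Line 1 gave 17.9 and 15.9 CPM without and 16.8 and 14.4 CPM with DOX, below line 2 with 24.4 and 23.8 CPM without and 21.8 and 20.6 CPM with DOX. TRIM24-KO spanned 36.6 to 40.7 CPM and TRIM33-KO 19.4 to 25.2 CPM. Line 1 was below all other lines in every library, and DUXBL-KO, line 2 and TRIM33-KO overlapped.

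Snx10, the endosomal sorting nexin, was higher in every library of plain WT than in any library of the other lines. Plain WT gave 43.4 and 45.9 CPM without and 37.9 and 43.1 CPM with DOX, and DUXBL-KO gave 14.6 and 17.3 CPM without and 16.1 and 14.1 CPM with DOX. Line 1 read 21.4 and 22.2 CPM without and 18.6 and 17.9 CPM with DOX, and line 2 read 18.5 and 20.5 CPM without and 14.2 and 14.9 CPM with DOX. TRIM24-KO read 23.8 and 22.0 CPM without and 17.4 and 18.3 CPM with DOX, and TRIM33-KO read 19.5 and 18.2 CPM without and 14.2 and 16.1 CPM with DOX. Each of the 5 lines below plain WT overlapped its neighbour in order. DUXBL-KO, at 14.1 to 17.3 CPM, still lay below every library of line 1 (17.9 to 22.2 CPM) and of TRIM24-KO (17.4 to 23.8 CPM). TRIM24-KO, near plain WT for the other 6 genes, was among the low lines for Snx10.

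Avl9, the DENN-type protein, and its neighbour Kbtbd2, the CUL3 adaptor, were both highest in plain WT and in TRIM24-KO, whose libraries overlapped. Avl9 spanned 34.5 to 38.6 CPM in plain WT and 31.7 to 37.7 CPM in TRIM24-KO, 19.6 to 25.4 CPM in line 1, 13.8 to 17.4 CPM in line 2, 13.4 to 17.3 CPM in DUXBL-KO and 12.6 to 16.1 CPM in TRIM33-KO. Line 1 stood alone at a middle level of Avl9. Kbtbd2 spanned 36.64 to 42.02 CPM in plain WT, 28.2 to 37.4 CPM in TRIM24-KO, 18.1 to 19.2 CPM in DUXBL-KO, 14.9 to 19.6 CPM in line 1, 13.6 to 15.2 CPM in line 2 and 13.0 to 13.9 CPM in TRIM33-KO. Plain WT had the highest mean of all 6 lines for all 7 genes, a rank that the choice of genes higher there than in DUXBL-KO favours. Plain and pLV2 lines were also separate sets of libraries, so set and line cannot be told apart in these comparisons across sets.

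**Figure D1:**
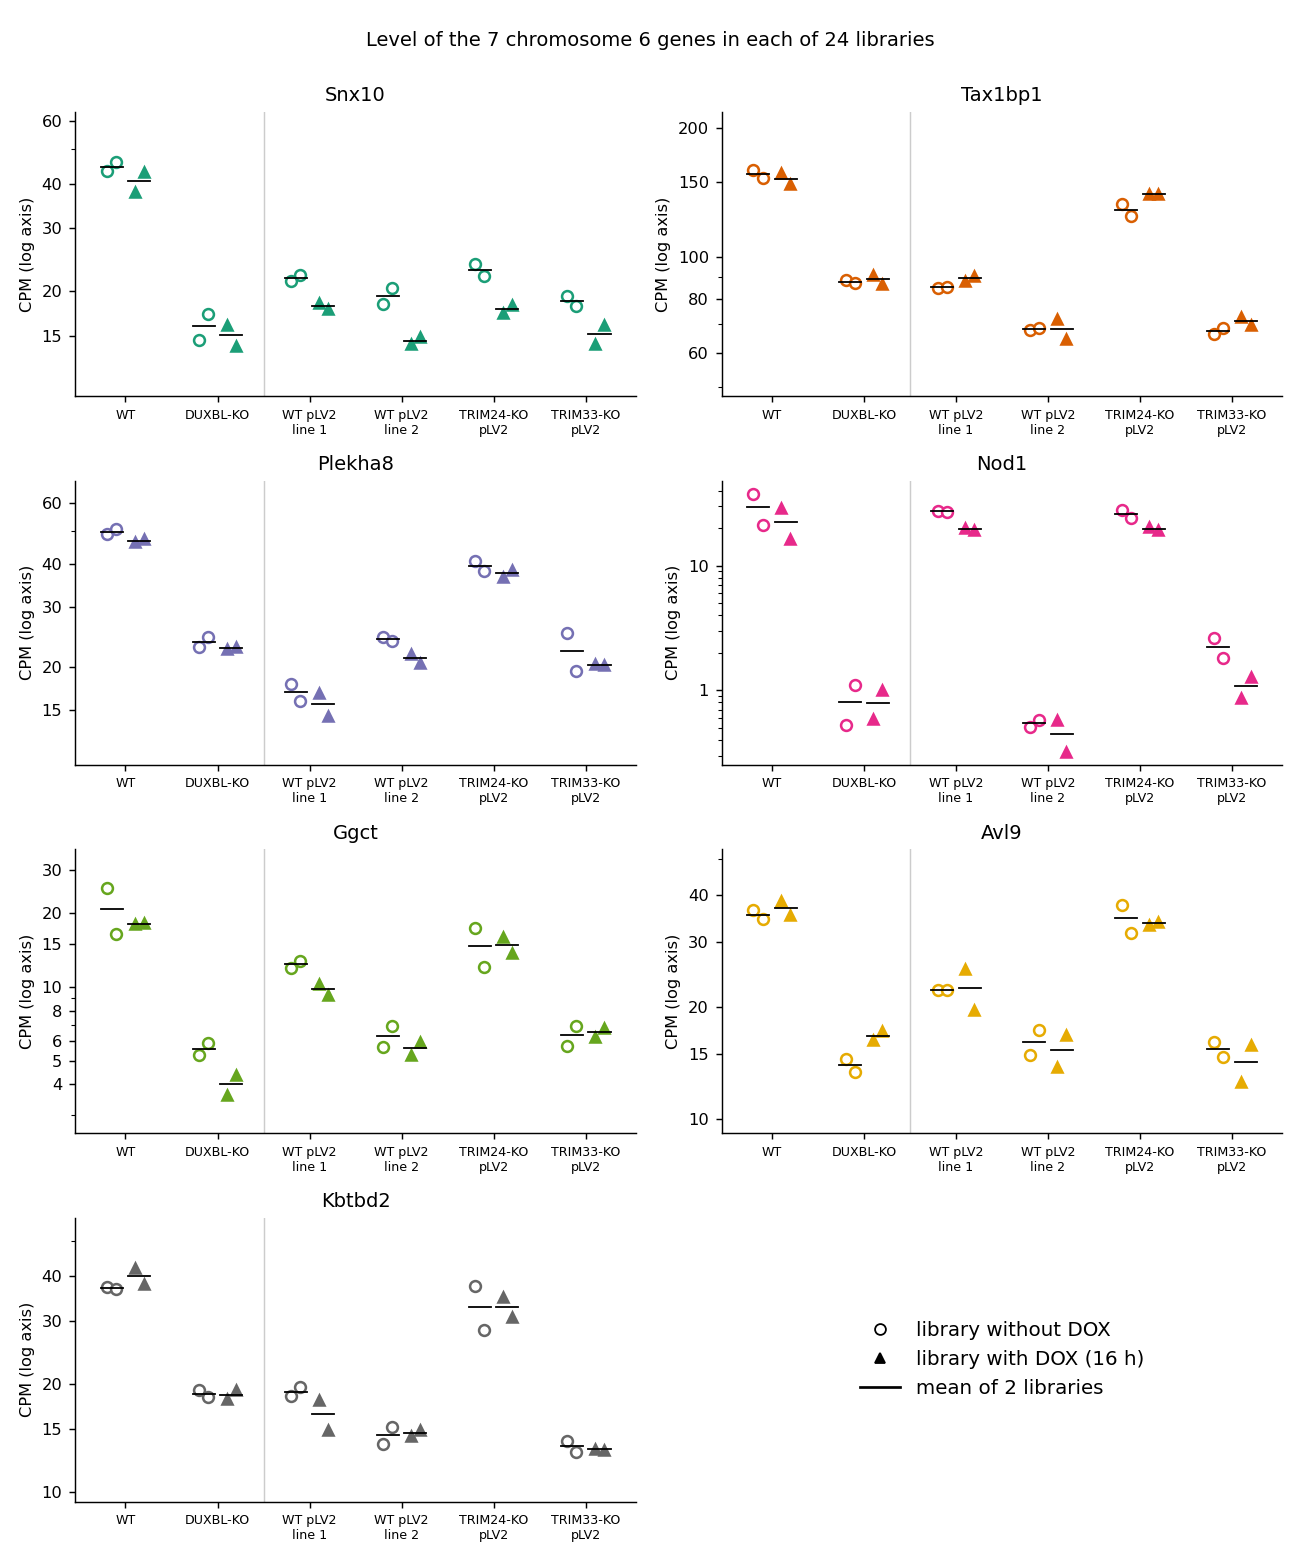
Level of each gene (CPM, log axis) in each of the 24 libraries, by line; open circles are libraries without DOX, filled triangles libraries with DOX, bars the mean of 2 libraries, and the grey line parts the plain from the pLV2 set. Nod1 lies between 16.3 and 37.7 CPM in 3 lines and under 3 CPM in the other 3, while the lowest and highest line means of Tax1bp1 differ by 2.26-fold.

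In the contrast that chose the genes, all 7 were lower in the libraries labelled DUXBL-KO than in plain WT in both states. Without DOX the log2 differences were -5.19 (SE 0.51) for Nod1, -1.92 (SE 0.23) for Ggct, -1.51 (SE 0.14) for Snx10, -1.36 (SE 0.11) for Avl9, -1.09 (SE 0.10) for Plekha8, -0.997 (SE 0.11) for Kbtbd2 and -0.85 (SE 0.08) for Tax1bp1. These are 36.4-fold lower for Nod1, 3.78-fold for Ggct and between 1.81-fold and 2.84-fold for the other 5. The size for Nod1 depends on single libraries: with 1 library left out it ran from -5.78 (without DUXBL-KO without DOX replicate 2) to -4.71 (without WT without DOX replicate 1) on the log2 scale. With DOX they were -4.78 (SE 0.51) for Nod1, -2.17 (SE 0.24) for Ggct, -1.43 (SE 0.14) for Snx10, -1.14 (SE 0.11) for Avl9, -1.10 (SE 0.11) for Kbtbd2, -1.04 (SE 0.10) for Plekha8 and -0.78 (SE 0.08) for Tax1bp1. The members' median was -1.36 without and -1.14 with DOX, against 0.00 and 0.02 over all 18060 genes tested. The share of all genes called in this contrast was 0.0388% without DOX, 5 members among them, and 0.072% with DOX, 7 members among them. The genes were picked with these values known, so the counts describe the choice and nothing is read from them.

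Most other genes of the same stretch of chromosome 6 were lower as well. Of 81 other protein-coding genes tested between 40 and 60 Mb, 70 were lower without and 71 with DOX, with medians of -0.85 and -0.91. Their differences were as large as the members' in many cases: 40 of the 81 without and 49 with DOX lay below Tax1bp1, the member with the smallest difference. Cbx3, which encodes a heterochromatin protein and lies next to Snx10, is not among the 7 but was in the same range, at -0.81 with DOX, below Tax1bp1 (-0.78), and at -0.66 without. It was the 1 other gene of the stretch called with DOX. Over all genes tested, members and non-coding genes included, the median was -0.15 between 40 and 45 Mb and -0.80, -1.08 and -1.21 in the next 3 windows of 5 Mb without DOX. Among 139 windows of 20 Mb over the genome, the one from 40 Mb of chromosome 6 had the lowest median in both states (-0.83 and -0.89), and the one from 100 Mb of the same chromosome the next lowest (-0.50 and -0.48). The first of these ranks restates the choice, which was made on this contrast and stretch, and the window includes the members. The tested protein-coding genes flanking the members were lower as well, from -0.66 for Cbx3 to -1.73 for Creb5 without DOX, with Znrf2, beside Nod1, at -1.08.

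With limits set after the profile had been seen, 65 of 68 other protein-coding genes from 43 to 62 Mb were lower without DOX (median -0.97) and 110 of 124 in a further segment from 110 Mb (median -0.54). The medians of the 3 other segments were 0.00, 0.03 and -0.02. Past the members, Ccser1, 6.21 Mb from Nod1, was at -1.01 without DOX but with an SE of 1.57, and at -0.73 with DOX (SE 0.43). DOX itself raised Ccser1 by 7.73 in plain WT and by 8.01 in DUXBL-KO on the log2 scale. Smarcad1, 10.1 Mb from Nod1, was at 0.12 without DOX (SE 0.09).

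**Figure D2:**
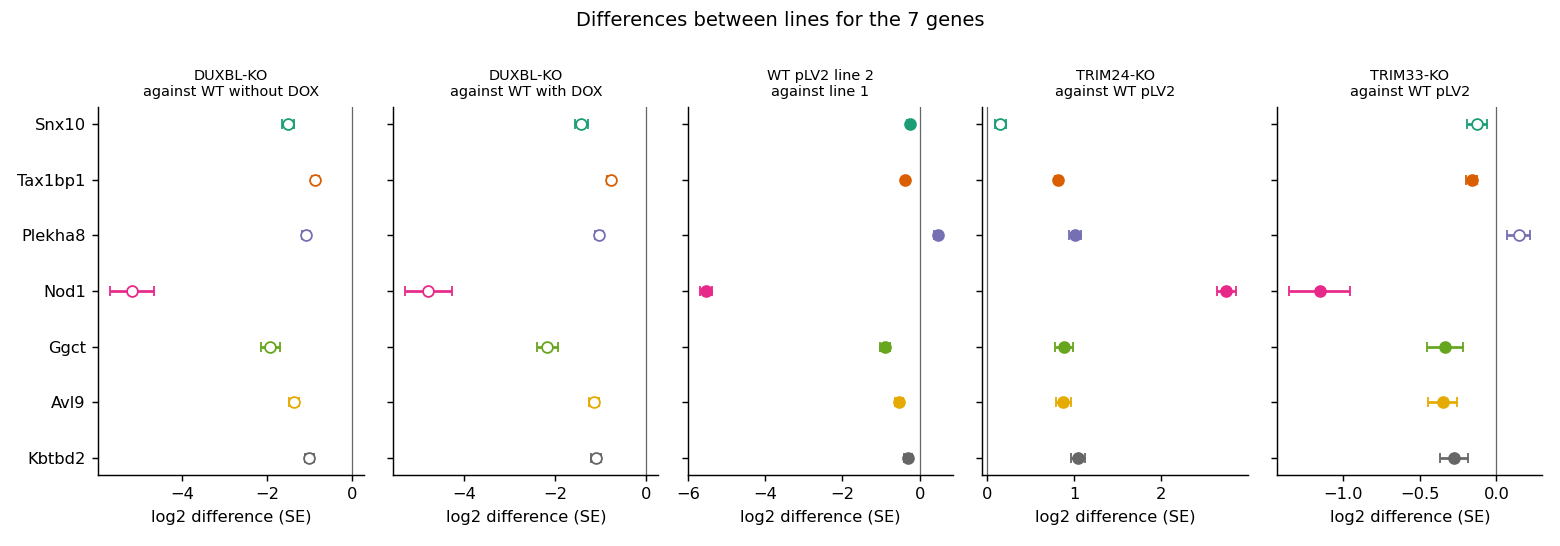
Log2 difference (point) and its standard error (bar) of the 7 genes in 5 comparisons of lines, each panel with its own axis; filled points passed an adjusted p of 0.05 in edgeR, and the DUXBL-KO panels, which chose the genes, are shown without a test and have unfilled points. Nod1 lies far below 0 in both DUXBL-KO panels and between the WT pLV2 lines, at -5.54 in the latter.

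The 2 WT pLV2 lines, which share their genotype label, differed in all 7 genes (edgeR, averaged over the states without and with DOX), against 50% of all genes tested. Of the 7, 6 were lower in line 2 than in line 1, against 26.6% of all genes, and 1 was higher, against 23.4%. Nod1 was 46.4-fold lower in line 2 (log2 -5.54, SE 0.16, edgeR adjusted p = 5.3e-13). That difference sets 4 to 10 Nod1 counts per library of line 2 against 235 to 399 per library of line 1; the libraries of line 2 alone do not carry Nod1 past the filter on low counts, so its call adds nothing to the count of members. Ggct was 1.86-fold lower (log2 -0.90, SE 0.13, edgeR adjusted p = 2.6e-05), Avl9 1.44-fold (-0.52, SE 0.10) and Tax1bp1 1.29-fold (-0.37, SE 0.04). Kbtbd2 (-0.30) and Snx10 (-0.26) were 1.23-fold and 1.20-fold lower. Plekha8 was 1.38-fold higher in line 2 (log2 0.47, SE 0.09, edgeR adjusted p = 0.00031). In the libraries without DOX alone Snx10 missed the threshold (edgeR adjusted p = 0.18), and with DOX alone Kbtbd2 did (0.33).

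The rest of the stretch had no common direction here. Of 73 other protein-coding genes tested between 40 and 60 Mb, 31 were lower and 42 higher in line 2, with a median of 0.11, against -0.37 for the members and -0.02 over all 18079 genes. Znrf2, on the other side of Nod1 from Ggct, was lower by 1.04 on the log2 scale and Hibadh, before Tax1bp1, by 0.60 (edgeR adjusted p = 2.5e-09 and 7.4e-07), while Gars, after Ggct, was at 0.03 (edgeR adjusted p = 0.60). Of the 19 pluripotency markers 14 were lower and 4 higher in line 2 than in line 1, and of 13 fibroblast markers tested 7 were higher and 1 lower; their part in the result was not tested. Chromosome 6 before 43 Mb was higher in line 2, in 138 of 142 genes with a median of 1.48, and the 42 higher genes counted from 40 Mb include some of that part. From 43 to 62 Mb, with the members left out, 32 of 60 genes were lower and 28 higher, with a median of -0.04. The step lay between Tcaf1, at -12.3 Mb from Nod1 (log2 2.22), and Arhgef5, at -11.7 Mb (0.22).

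In the libraries labelled TRIM24-KO 6 of the 7 genes were higher than in the mean of both WT pLV2 lines (edgeR), against 26.9% of all genes tested. Nod1 was 6.71-fold higher (log2 2.75, SE 0.11, edgeR adjusted p = 2.6e-12), Kbtbd2 2.07-fold (1.05, SE 0.08), Plekha8 2.02-fold (1.01, SE 0.07), Ggct 1.85-fold (0.88, SE 0.11), Avl9 1.83-fold (0.87, SE 0.08) and Tax1bp1 1.75-fold (0.81, SE 0.04). Snx10 was at 0.15 (SE 0.06) and did not pass (edgeR adjusted p = 0.059). Which WT line is the reference decided Nod1: against line 1 alone it was at -0.02 (edgeR adjusted p = 0.89) and against line 2 alone 5.51 higher on the log2 scale. Tax1bp1, Plekha8, Ggct, Avl9 and Kbtbd2 were higher against either line, by 0.44 to 1.24 against line 1 and 0.78 to 1.33 against line 2. Snx10 was at 0.02 against line 1 and 0.28 higher against line 2 (edgeR adjusted p = 0.0039). Relative to line 1 alone 5 members were higher, against 22.6% of all genes, and relative to line 2 all 7, against 29.1%. The count against line 2 includes Nod1, which the libraries of line 2 alone do not carry past the filter on low counts. The call of Nod1 adds nothing to that count.

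The other genes of the stretch were higher too in the libraries labelled TRIM24-KO. Of the 73, 60 were higher (49 of them called), with a median of 0.71 beside 0.88 for the members and -0.01 over all genes. The higher stretch did not end with the members: the median from 43 to 62 Mb was 0.81 and from 62 to 110 Mb 0.95, against 0.84 and 0.94 with line 1 alone as reference and 0.81 and 1.01 with line 2 alone. Outside these segments the profile depended on the reference: before 43 Mb the median was 0.92 against line 1 and -0.53 against line 2, and in both segments from 110 Mb on it was -0.04 and -0.03 against line 1 and -0.55 and -0.51 against line 2. Fibroblast markers were low in these libraries, with a summed 691 to 798 CPM over 19 genes against 1181 to 1250 in plain WT and 1560 to 1892 in the WT pLV2 lines. From 2 to 3 of the 19 were at 0 in these libraries, Postn among them, against 2 to 5 in the other groups. Of 13 fibroblast markers tested against the WT pLV2 lines 8 were lower and 2 higher. Endoderm markers were higher than in the WT pLV2 lines in 6 of 6 tested (median 2.32). Their sum was 206 to 239 CPM against 126 to 190 in the WT pLV2 lines, but 240.7 to 260.5 in plain WT. Of 8 trophoblast markers tested against the WT pLV2 lines 6 were higher (median 1.87) and 1 lower. Of the 19 pluripotency markers 8 were higher, among them Klf5 (2.04), and 10 lower, among them Prdm14 (-1.58). The part of these cell types in the result was not tested.

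In TRIM33-KO 5 of the 7 genes were lower than in the mean of both WT pLV2 lines (edgeR), against 18.0% of all genes tested: Nod1 2.22-fold (log2 -1.15, SE 0.20, edgeR adjusted p = 0.00028), Avl9 1.27-fold (-0.35), Ggct 1.26-fold (-0.34), Kbtbd2 1.21-fold (-0.28) and Tax1bp1 1.12-fold (-0.16). This count rests on line 1. Against line 1 alone all 7 passed (51.6% of all genes), 6 of them lower (27.6% of all genes), with Nod1 at -3.92, and Plekha8 was higher by 0.38. Against line 2 alone only Nod1 passed, and it was 3.07-fold higher (log2 1.62, SE 0.27, edgeR adjusted p = 0.0015), where 5.38% of all genes were called and 3.34% were higher. Nod1 was low in both lines, with 9 to 50 counts per library of TRIM33-KO against 4 to 10 of line 2. The libraries of line 2 alone do not carry it past the filter on low counts. The other 6 lay between -0.13 and 0.11 of line 2. The segments of chromosome 6 had medians between -0.05 and 0.08 of line 2, but single genes differed. Of the 73 other protein-coding genes tested in the stretch, 6 were called higher in TRIM33-KO than in line 2 and 0 lower. Creb5, the tested gene after Tax1bp1, was 4.96 higher on the log2 scale (edgeR adjusted p = 4.3e-08). Trim24, outside the stretch, was 0.42 higher (edgeR adjusted p = 0.00081). The TRIM24-KO and TRIM33-KO comparisons share their WT libraries. Of the 19 pluripotency markers 12 were lower and 3 higher in TRIM33-KO than in both WT pLV2 lines, and of 13 fibroblast markers tested 6 were higher and 2 lower; their part in the result was not tested.

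Leaving out each of the 12 libraries in turn left 2 to 5 members called in TRIM33-KO. Ggct passed the threshold only narrowly (edgeR adjusted p = 0.039), and it was lost without any of 8 of these libraries. Kbtbd2 (0.024) was lost without any of 7. Avl9 (0.0077) was lost without TRIM33-KO with DOX replicate 1, and Nod1 and Tax1bp1 were called each time.

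**Figure D3:**
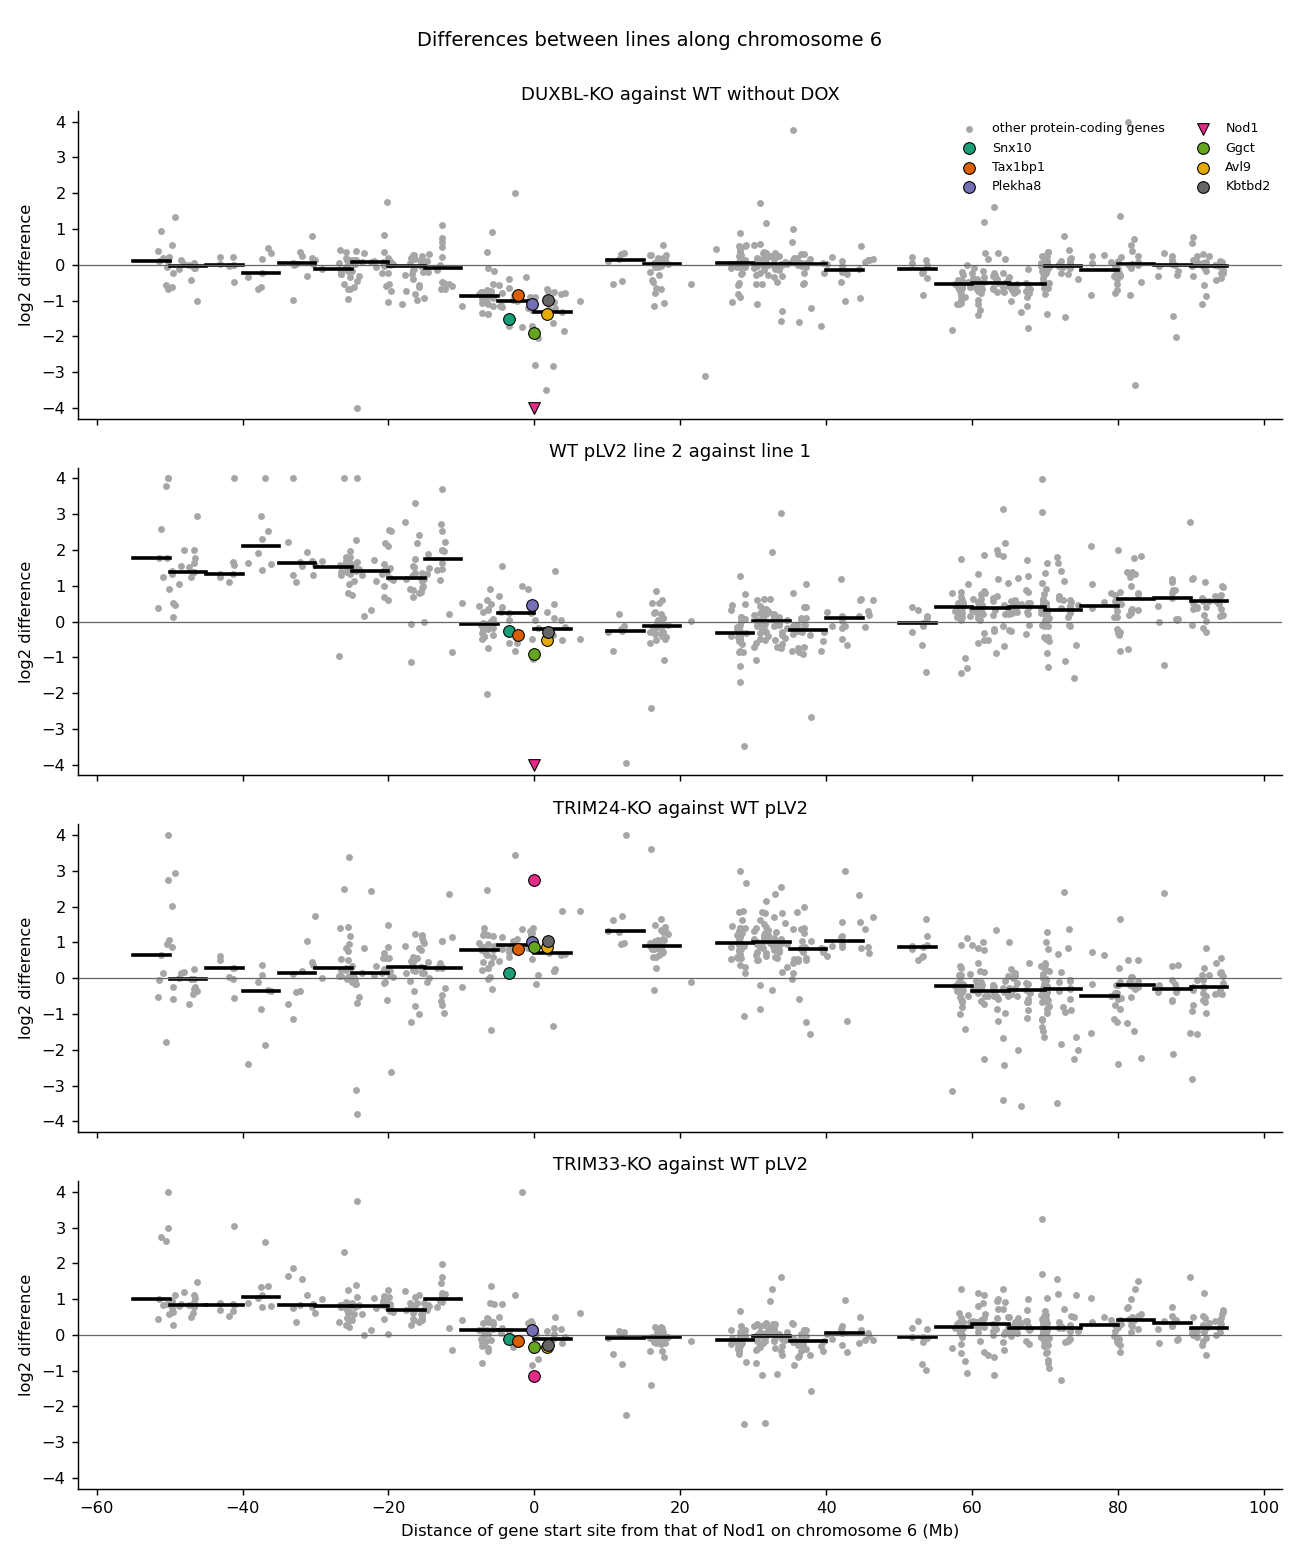
Log2 difference of protein-coding genes along chromosome 6 in 4 comparisons, against the distance (Mb) of each gene's start site from that of Nod1; grey points are other genes, coloured points the members, black bars medians of windows of 5 Mb counted from Nod1 with at least 5 genes, and values beyond 4 are drawn at 4 (Nod1 as a triangle). The members lie in a lower block in DUXBL-KO, beyond the end of a higher block in WT pLV2 line 2 and inside a longer higher block in TRIM24-KO.

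Of the 7 genes, 0 to 2 per line passed the test of DOX for 16 h, and each that passed fell. In plain WT none passed (edgeR, 0 at an unadjusted p under 0.05), against 2.93% of all genes tested. In the line labelled DUXBL-KO none passed, against 4.91% of all genes, with 1 member at an unadjusted p under 0.05, Avl9, with a log2 difference of 0.28 (edgeR adjusted p = 0.33). DESeq2 called 0 members in both. The interaction of DUXBL-KO with DOX had 0 members and 0.0% of all genes passing (0 members at an unadjusted p under 0.05); the members' differences in response lay between -0.25 and 0.40, with standard errors from 0.11 to 0.74.

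In the pLV2 lines the genes that passed were Snx10 and Nod1, 1 member in each of line 1, line 2 and TRIM24-KO and 2 in TRIM33-KO. Of all 18079 genes tested, 2942, 4838, 2969 and 6611 were called in the same order. Nothing is read from these counts of members. Snx10 fell by 0.45 in line 2 (SE 0.10, edgeR adjusted p = 0.0038), where 14.0% of all genes fell, by 0.34 in TRIM24-KO (SE 0.10, edgeR adjusted p = 0.034), where 4.94% fell, and by 0.36 in TRIM33-KO (SE 0.11, edgeR adjusted p = 0.015), where 20.1% fell. In line 1 it stood at -0.29 and did not pass (edgeR adjusted p = 0.065). The 2 libraries with DOX were below the 2 without it in 5 of the 6 lines for Snx10, the exception being DUXBL-KO. They were below in 3 lines each for Nod1 and Plekha8, in 2 for Ggct and in 1 for Kbtbd2. They were above in 3 lines for Tax1bp1 and in 1 each for Avl9 and Kbtbd2. The share over all genes was not computed, so nothing is read from these counts of lines. Nod1 fell by 0.50 in line 1 (SE 0.13, edgeR adjusted p = 0.011), where 6.25% of all genes fell, and by 1.10 in TRIM33-KO (SE 0.30, edgeR adjusted p = 0.0082). The latter rests on 50 and 36 counts without and 9 and 11 with DOX, and with the TRIM33-KO libraries fitted alone it did not pass (edgeR adjusted p = 0.064). In TRIM24-KO Nod1 stood at -0.37 (edgeR adjusted p = 0.062). The other genes ran from -0.38 (Ggct in line 1) to 0.15 (Tax1bp1 in TRIM24-KO) in the pLV2 lines, and none of them passed. Whether the response differed between pLV2 lines was not tested.

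These calls were sensitive to single libraries. Nod1 in line 1 was lost without line 1 without DOX replicate 1 or 2 or with DOX replicate 2, and Nod1 in TRIM33-KO without replicate 1 of either state. Snx10 was lost in line 2 without line 2 without DOX replicate 2, in TRIM24-KO without replicate 1 of either state or with DOX replicate 2, and in TRIM33-KO without replicate 1 of either state or with DOX replicate 2. The direction was the same in each of these fits. TRIM24-KO and TRIM33-KO with DOX replicate 2 are the libraries in which CT010467.1 took a large share of counts. With that gene left out of the counts, Snx10 was at -0.37 in TRIM24-KO and -0.34 in TRIM33-KO and Nod1 at -1.08 in TRIM33-KO, all still called, and Nod1 in TRIM24-KO passed as well (-0.41, edgeR adjusted p = 0.042).

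**Figure D4:**
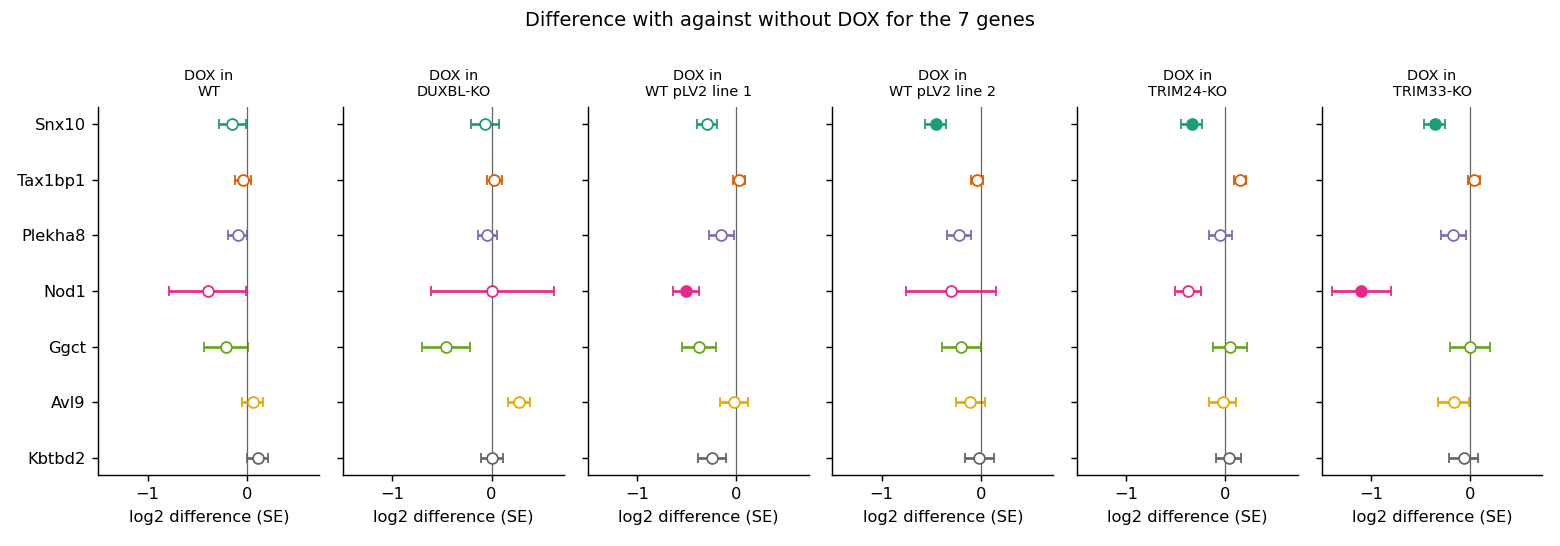
Log2 difference with against without DOX (point) and its standard error (bar) of the 7 genes in the 6 lines, on 1 common axis; filled points passed an adjusted p of 0.05 in edgeR. The 5 filled points, Snx10 in 3 lines and Nod1 in 2, lie between -1.10 and -0.34.

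On the scale common to all 24 libraries, the 7 genes were below plain WT in every other line. This is a description across sets, and since the genes were chosen as high in plain WT relative to DUXBL-KO, it reuses values behind the choice. The members' median was -1.23 in DUXBL-KO, -0.82 in line 1, -1.33 in line 2, -0.23 in TRIM24-KO and -1.33 in TRIM33-KO, while the median over all 19021 genes was 0.01 to 0.04. The 69 other protein-coding genes from 43 to 62 Mb had medians of -0.89, -0.91, -0.96, -0.19 and -0.91 in the same order. Line 1 differed from the other low lines by its Nod1, at -0.10 against -3.91 to -5.34, and was lowest of all lines in Plekha8, at -1.56. Pair by pair over the 24 libraries, centred within each set, the members' log2 CPM correlated with r from 0.49 (Nod1 with Plekha8) to 0.97 (Tax1bp1 with Kbtbd2), with a median of 0.83 over 21 pairs. The libraries share lines and states, so these are descriptions of 6 lines more than of 24 independent points. The choice of genes by their drop in DUXBL-KO also sets part of r: over the 16 pLV2 libraries alone, which the choice did not use, r ran from 0.20 (Nod1 with Plekha8) to 0.96 (Avl9 with Kbtbd2), with a median of 0.72.

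**Figure D5:**
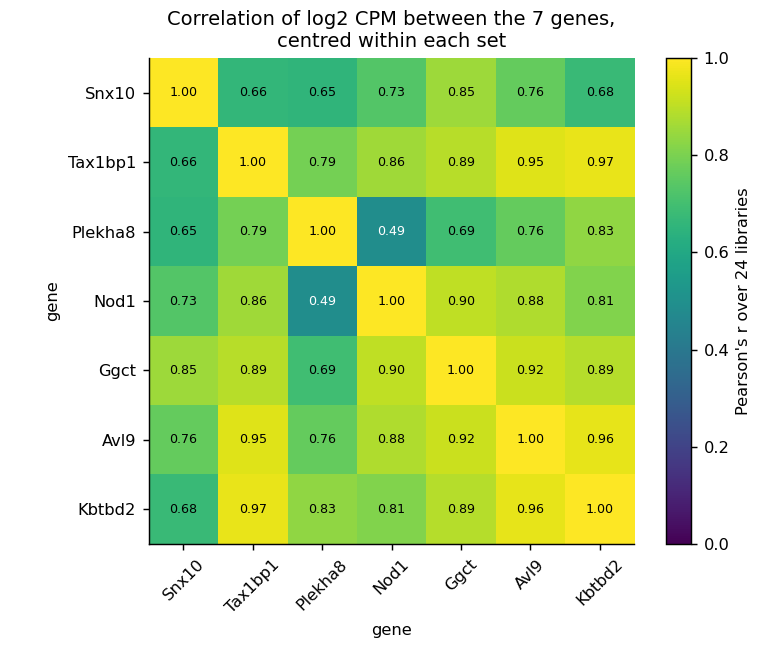
Pearson's r of log2 CPM (prior count 2) between the 7 genes over the 24 libraries, each gene centred within the plain and within the pLV2 set; both axes list the genes, and colour and number give r. The lowest value is 0.49 for Nod1 with Plekha8 and the highest 0.97 for Tax1bp1 with Kbtbd2.

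The genes whose pattern was most like the members' mean over the 24 libraries were Magi1 (r = 0.94), Znrf2 (0.93), Hibadh (0.93), Celsr3 (0.92) and Nova2 (0.91). Magi1, Znrf2 and Hibadh lie on chromosome 6, the last 2 in the same stretch as the members and Magi1 39.3 Mb from Nod1. Of the 50 most alike genes, 19 lie on chromosome 6, which holds 4.52% of the 19014 genes compared, and 18 of these start between 40 and 60 Mb. The 24 libraries include the plain ones, whose contrast the choice used. Over the 16 pLV2 libraries alone, 1 of the 50 most alike genes lies on chromosome 6, namely Znrf2 (r = 0.98). The mean is of unscaled log2 CPM, so Nod1 weighs most in it there. Between the WT pLV2 lines Nod1 differed by -5.54 and the other members by -0.90 to 0.47. What lowered the share was not tested. The matches of single genes likewise include the plain libraries and are given as a description of all 24. Taken 1 by 1, Plekha8 was most like Cul1 (0.97), Tax1bp1 most like Pdia4 (0.97), Kbtbd2 most like Fkbp9 (0.97) and Avl9 most like Kbtbd2 (0.96). Snx10 was most like Mindy4 on chromosome 6 (0.87). Nod1 and Ggct had their closest matches on other chromosomes, Celsr3 on chromosome 9 (0.94) and Nova2 on chromosome 7 (0.92).

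Genes of the pathways of the 7 proteins went in both directions in most lists. Of all genes tested, 50% were called between the WT pLV2 lines, 53.5% in TRIM24-KO and 35.6% in TRIM33-KO, and a list's count near these shares says nothing about that list. Of 16 tested genes of the Nod1 pathway, 3 were higher and 3 lower in line 2 than in line 1 (edgeR; median -0.16), with Ikbkb, an NF-kB kinase, 0.69 higher and Xiap 0.47 lower. In TRIM24-KO 4 were higher and 3 lower (median 0.00), with Nfkb1 at 0.72 and Rela at 0.64, and in TRIM33-KO 1 and 3 (median -0.11). Of 10 autophagy receptor genes beside Tax1bp1, 2 were higher and 2 lower in line 2 than in line 1, among them Nbr1 at 0.38 and Ncoa4 at -0.46. All 10 passed in TRIM24-KO, 4 higher and 6 lower, and 1 was higher in TRIM33-KO. Of 11 tested genes of the gamma-glutamyl cycle, 4 were higher and 2 lower in line 2, led by the cystine carrier gene Slc7a11 (2.09), and 2 were higher and 4 lower in each of TRIM24-KO and TRIM33-KO. Of 11 genes around CUL3 and PI3 kinase, 2 were higher and 4 lower in line 2, with Cul3 at 0.46 and Pik3r1, the p85 gene, at -0.61, while TRIM24-KO had 3 higher and 3 lower, and TRIM33-KO 3 higher and 4 lower.

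Of 19 sorting nexin and proton pump genes beside Snx10, 7 were higher and 8 lower in line 2 than in line 1, with Snx9 at -1.04 and Atp6v1b2 at 0.62. TRIM24-KO had 7 higher and 3 lower, and TRIM33-KO 7 higher and 9 lower. Of 12 tested genes of glycosphingolipid transfer beside Plekha8, 2 were higher and 7 lower in line 2 (median -0.29), 8 and 1 in TRIM24-KO (median 0.28, with B4galt6 at 1.92) and 1 and 6 in TRIM33-KO (median -0.12). Of 14 DENN-type genes beside Avl9, 5 were higher and 4 lower in line 2 and likewise in TRIM24-KO, against 6 higher and 6 lower in TRIM33-KO. Dennd2a was higher in all 3 comparisons, at 1.13, 1.11 and 0.55. It lies on chromosome 6 at -15.4 Mb from Nod1, within the part before 43 Mb that was higher in line 2 as a whole. Between plain WT and DUXBL-KO no gene of these 7 lists passed, where 0.0388% of all genes without and 0.072% with DOX did, so that 0 is also the background, with list medians from -0.37 to 0.05 without DOX.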

How the data were processed

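RNA was measured in 24 libraries of mouse embryonic stem cells, from total RNA after ribosomal RNA depletion with a strand-keeping kit, per the labels' protocols. The submitters' processing notes name bcl2fastq 2.20.0, cutadapt 1.18, STAR 2.7.6a and the mm10 build; the counting tool and its strand setting are not given in the sources used here. The deposited values are raw counts per gene and per repeat subfamily. The 1146 repeat subfamilies were left out of library sizes and tests. Of 55487 gene IDs, 54435 matched GENCODE M21 with their version, 792 without it and 260 not at all.

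Counts were fitted with edgeR 4.0.16 in R 4.3.3 (TMM factors, its filter on low counts, quasi-likelihood test, 1 mean per group), separately for the 8 plain libraries (18060 genes) and the 16 pLV2 libraries (18079 genes), with Benjamini-Hochberg adjustment over all genes of each contrast. The code was tested on simulated data. Gene totals of 11784696 to 19136869 per library set the precision. No replicates were identical. DESeq2 1.42.0, other size factors, no filter, other sets of libraries, a replicate block and leaving out each library were the alternatives. The members and gene lists were chosen with earlier results of these data known. The named genes are the 7 members, their nearest tested protein-coding neighbours, the 5 genes most alike and the list genes with the smallest p-values; Ccser1, Smarcad1, Tcaf1 and Arhgef5, at the edges of stretches, were chosen after their values were seen.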

Additional observations from a re-analysis of the deposited data

Results flagged for a closer look

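Kbtbd2, the CUL3 adaptor, was 0.11 higher with DOX on the log2 scale in plain WT and stood at -0.25 in WT pLV2 line 1. Both libraries with DOX were above both without it in plain WT and below both in line 1. Neither value passed edgeR's test (adjusted p = 0.85 and 0.27), and the difference between the lines was not tested.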

How the results depend on the processing

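Between lines, Nod1 in TRIM24-KO turned to -0.0217 with WT pLV2 line 1 alone as reference, and with line 2 alone Ggct, Tax1bp1 and Nod1 in TRIM33-KO turned to 0.1123, 0.0224 and 1.62. The 5 members called in TRIM33-KO became 3 with DESeq2, 3 without the DOX libraries, 2 with these alone and 1 with line 2 alone. The causes were not tested.

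The DOX calls were the least stable. In line 1 the 1 member called became 0 with all 24 libraries in 1 fit, and in line 2 it became 0 with only the groups compared. In TRIM24-KO the 1 member called became 2 with RLE size factors, without CT010467.1 and with the replicate block, and 0 with no filter, with DESeq2, with only the groups compared and with all 24 libraries. In TRIM33-KO the 2 became 1 with RLE size factors and with DESeq2, and 0 with only the groups compared and with all 24 libraries.

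Leaving out 1 library at a time gave member medians of -1.38 to -1.29 without and -1.20 to -1.09 with DOX for DUXBL-KO against WT. It gave 0 to 0 members called for DOX in WT, in DUXBL-KO and for their interaction, 0 to 1 in line 1 and in line 2, 0 to 2 in TRIM24-KO and in TRIM33-KO, 5 to 7 between the WT pLV2 lines, 6 to 7 in TRIM24-KO against WT and 2 to 5 in TRIM33-KO against WT. A group left with 1 library was assumed to vary like the others.

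Genes called for DOX in WT (529) became 1110 with no filter, 961 with the replicate block, 1 with only the groups compared, 1206 with all 24 libraries and 2 to 635 with 1 library left out. In DUXBL-KO (886) they became 1540 with no filter, 1594 with the block, 1849 with all 24 and 496 to 563 with 1 left out. The interaction (0) gave 17 with no filter, 1 with DESeq2 and 1 with all 24, and 0 to 0 with 1 left out. Line 1 (2942) gave 1834 with all 24 and 1575 to 1945 with 1 left out, line 2 (4838) 2725 with only the groups compared, 3123 with all 24 and 2934 to 4038, TRIM24-KO (2969) 1938 to 2659 and TRIM33-KO (6611) 4392 to 5163. TRIM33-KO against WT (6437) gave 973 with line 2 alone.

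The replicate numbers were not shown to pair the libraries, with only 2 numbers; same-numbered libraries' deviations correlated at 0.25 to 0.55 in the plain set and -0.05 to 0.19 in the pLV2 set. The block changed the count of members called only for DOX in TRIM24-KO. Segments of chromosome 6 were set after seeing the data, as was the use of the pLV2 libraries only for the genes most alike, which took the 19 of 50 on chromosome 6 to 1. Nod1 in the low lines rests on 4 to 50 counts per library.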
